A study of Mus musculus with 4 samples.

Results

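The miR-17 seed family was followed across 4 microRNA (miRNA) arrays of mouse mast cells. It comprised miR-17, miR-20a, miR-20b, miR-93, miR-106a and miR-106b, 6 of the 389 mouse miRNAs that had a probe. The family was picked with earlier results of these data known. Its probes were taken by name, with no filter on signal: any mouse-, human- or rat-named probe for the guide strand of a member was taken, and star-strand, miR-17-3p and mismatch probes were left out. This gave 10 of the 785 miRNA probes on each array, of which 6 were human-named, 3 mouse-named and 1 rat-named. miR-17, miR-20a and miR-106b had a human-named probe only, miR-93 and miR-106a had a mouse- and a human-named probe, and miR-20b had all 3 kinds. Where a member had several, its mouse-named probe stood for it.

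The study asked which miRNAs follow signalling by KIT, the receptor tyrosine kinase for stem cell factor (SCF). Bone-marrow-derived mast cells (BMMC), primary mouse cells expanded in SCF and interleukin 3, were either starved of SCF or given SCF at 100 ng per cc. P815, a mouse mast cell line that grows without cytokines and carries the D814V change in KIT, was left untreated or given imatinib, a kinase inhibitor, at 10 nM. The treatments lasted 24 h, and there was 1 array for each of the 4 groups, called starved BMMC, SCF-treated BMMC, untreated P815 and imatinib-treated P815 here. No difference therefore has a replicate error, no test or p-value was computed, and array and group cannot be told apart. P815 stands for 1 cell line, the labels give no number of mice behind the BMMC cultures, and KIT activity itself was not measured on these arrays.

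A miRNA guides the silencing complex to messenger RNAs mainly through its seed, bases 2 to 8 from its 5′ end, so miRNAs with the same seed are expected to share many targets. The miR-17 family is carried by 3 related clusters in mammals: the miR-17 cluster, known as an oncogenic cluster that MYC activates, its X-linked copy, and the miR-106b cluster, which lies in an intron of Mcm7, a gene of the replicative helicase. Known targets of the family include mRNAs of cell-cycle and cell-death regulators such as Cdkn1a, E2f1 and Bcl2l11, and the miR-17 cluster is needed for normal B-cell development.

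The mature sequences show how little separates the members, which bears on how far a hybridization probe can tell them apart. They are the RefSeq entries on mouse assembly GRCm38.p6, where all 6 members were matched, and the seed is in capitals.
miR-17: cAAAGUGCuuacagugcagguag
miR-20a: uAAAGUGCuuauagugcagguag
miR-20b: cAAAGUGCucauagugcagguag
miR-106a: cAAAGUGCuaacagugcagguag
miR-93: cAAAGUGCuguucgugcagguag
miR-106b: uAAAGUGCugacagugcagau
All 6 carried the seed AAAGUGC. Relative to miR-17, and counting from 1 at the 5′ end with the miR-17 base first, miR-106a had 1 difference (U10A), miR-20a had 2 (C1U and C12U) and miR-20b had 2 (U10C and C12U). miR-93 had 4 (U10G, A11U, C12U and A13C). miR-106b had 3 over its 21 bases (C1U, U10G and G20A) and was 2 bases shorter. Among all pairs, the number of differences ran from 1 (miR-17 with miR-106a) to 5 (miR-93 with miR-106b). Of 1679 distinct mature names in the table, 7 had this seed at bases 2 to 8, and the remaining one, miR-6383, was not analysed here.

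By position, miR-17 (chr14:115043684-115043706) and miR-20a (chr14:115044183-115044205) lie on the plus strand of chromosome 14 in the miR-17 cluster. miR-106a (chrX:52742541-52742563) and miR-20b (chrX:52742159-52742181) lie on the minus strand of the X chromosome. miR-93 (chr5:138165574-138165596) and miR-106b (chr5:138165787-138165807) lie on the minus strand of chromosome 5, and their hairpins fall inside Mcm7 (chr5:138164583-138172111). No probe sequences were at hand, so it is not known which of these bases each probe covers.

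The arrays differed in overall brightness. The median miRNA probe read 504.0 and 357 in the starved and SCF-treated BMMC, and 252 and 232 in the untreated and imatinib-treated P815. The authors listed a probe in their processed table where its intensity was at least 1.5 times the array's median mismatch probe, and a probe below that is called not listed. Between 153 and 254 of the 389 mouse miRNAs were listed per array, as were 32 to 60 of the 107 probes named for virus and worm miRNAs. Of the blood-lineage miRNAs miR-142-3p, miR-142-5p, miR-223, miR-150 and miR-126, 3 were listed in each BMMC array and 1, miR-142-5p, in each P815 array, with summed intensities of 3392 and 2293 in BMMC without and with SCF and of 1147 and 1108 in P815 without and with imatinib. The miR-223 probe, for a myeloid miRNA, read 1101 and 717 in the BMMC arrays and 160 and 148 in the P815 arrays. Among the muscle, liver, neuron, epithelium and endocrine lists, miR-206, miR-122a and miR-7 were listed on all 4 arrays, and the miR-206 mismatch probe was itself bright, at 891 to 1677. In untreated P815 against SCF-treated BMMC, miR-7 (1.56), miR-128a (1.45), miR-1 (1.16) and miR-206 (1.06) were at least 2-fold higher on the normalized log2 scale. They come from the endocrine, neuron and muscle lists, and 4 family members were at least 2-fold higher as well. Of the blood-lineage miRNAs, miR-223 (-2.30) and miR-142-3p (-1.03) were at least 2-fold lower, whereas miR-142-5p was higher, at 0.46. The human-named miR-142-3p probe was at -0.90, short of 2-fold. miR-150 and miR-126 were listed on neither array and were not compared. The part of these markers in the results was not tested.

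All 10 family probes were listed on all 4 arrays and stood well clear of their mismatch probes. Probes whose name adds a 2mut tag to a miRNA's name were read as mismatch probes, although the labels do not define the tag, and 8 of the 10 family probes had one. A matched family probe was 7.40 to 28.5 times as bright as its mismatch probe in starved BMMC, 6.14 to 16.1 times in SCF-treated BMMC, 3.93 to 28.7 times in untreated P815 and 6.05 to 36.4 times in imatinib-treated P815. The lowest of these ratios belonged to miR-106b in untreated P815 (666 against 169.5) and the highest to the mouse-named miR-20b probe in imatinib-treated P815 (5228 against 143.5). Of the 8 mismatch probes, only that of miR-20a was bright enough to be listed by the authors' limit, and it was so on every array, at 550.0, 512, 488.5 and 312.5. The brightest family value, 8009, lay well under the largest intensity on the same array, 43782.

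**Figure D1:**
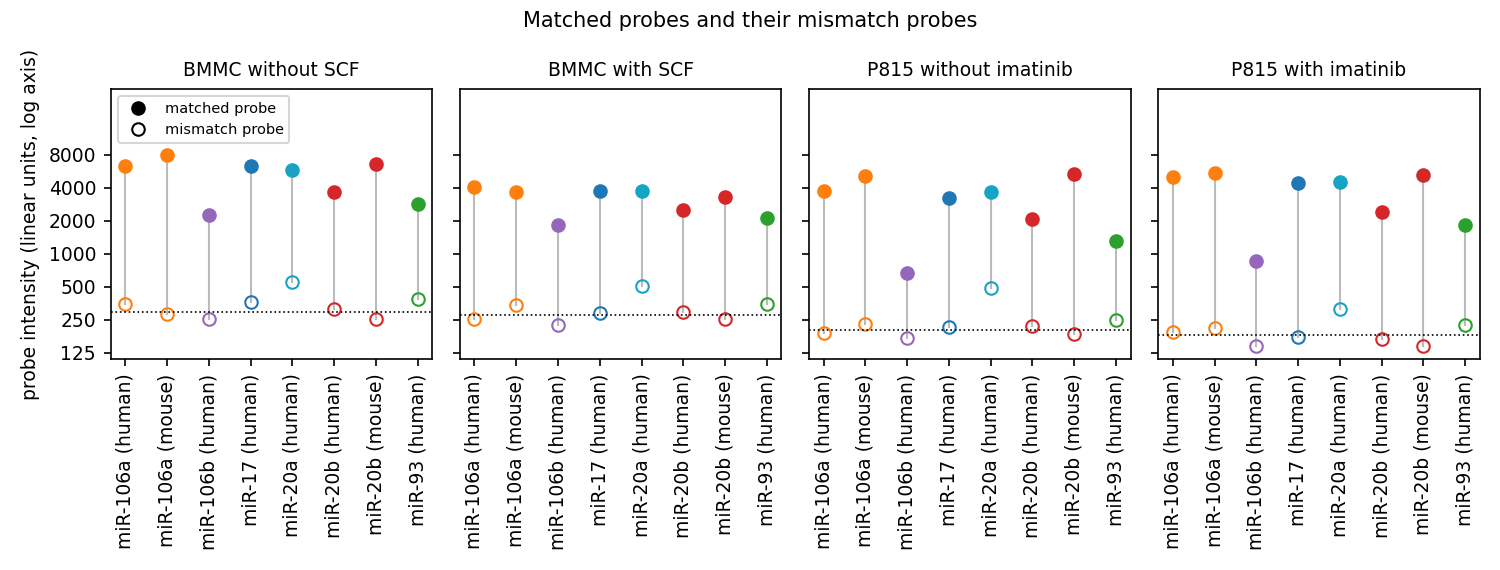
Intensity of the 8 family probes that have a mismatch probe (filled points) and of that mismatch probe (open points) on each array, on a log axis; the probe's named species is in brackets and the dotted line is the median of all mismatch probes on that array. The narrowest gap is that of miR-106b in untreated P815 (3.93 times) and the miR-20a mismatch probe stands highest in each panel.

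The X-linked members are miR-106a and miR-20b. The mouse-named miR-106a probe read 8009 in starved BMMC, 3701 in SCF-treated BMMC, 5107 in untreated P815 and 5527 in imatinib-treated P815. The human-named miR-106a probe read 6399, 4113, 3726 and 5079 in the same order. Both were brightest in starved BMMC, but only the mouse-named one was brighter in untreated P815 than in SCF-treated BMMC. The mouse-named miR-20b probe read 6624, 3331, 5365 and 5228, the human-named one 3635, 2522, 2076 and 2400.0, and the rat-named one 2295, 1068.5, 1034 and 1018. The mouse-named miR-20b probe was thus brighter in both P815 arrays than in SCF-treated BMMC, whereas the human- and rat-named probes were dimmer there.

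The chromosome 14 members had nearly equal profiles. miR-17 read 6319.5 in starved BMMC, 3736 in SCF-treated BMMC, 3235 in untreated P815 and 4434.5 in imatinib-treated P815. miR-20a read 5892, 3754.5, 3708.5 and 4532 in the same order. For each of them starved BMMC was highest and untreated P815 lowest.

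The chromosome 5 members are miR-93 and miR-106b. miR-93 read 3288, 2235, 1437 and 1812 on its mouse-named probe and 2848, 2135, 1307.5 and 1852 on its human-named probe. miR-106b read 2258.5 and 1852.5 in BMMC without and with SCF, and 666 and 868.0 in P815 without and with imatinib. Both P815 arrays lay below both BMMC arrays for these members, on all 3 probes. In unscaled intensity all 10 family probes were brightest in starved BMMC, the array with the brightest median probe. In normalized values, which correct for overall brightness, untreated P815 was highest for 4 of the 6 members, imatinib-treated P815 for 2 and SCF-treated BMMC for 1, with miR-17 tied between the P815 arrays.

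**Figure D2:**
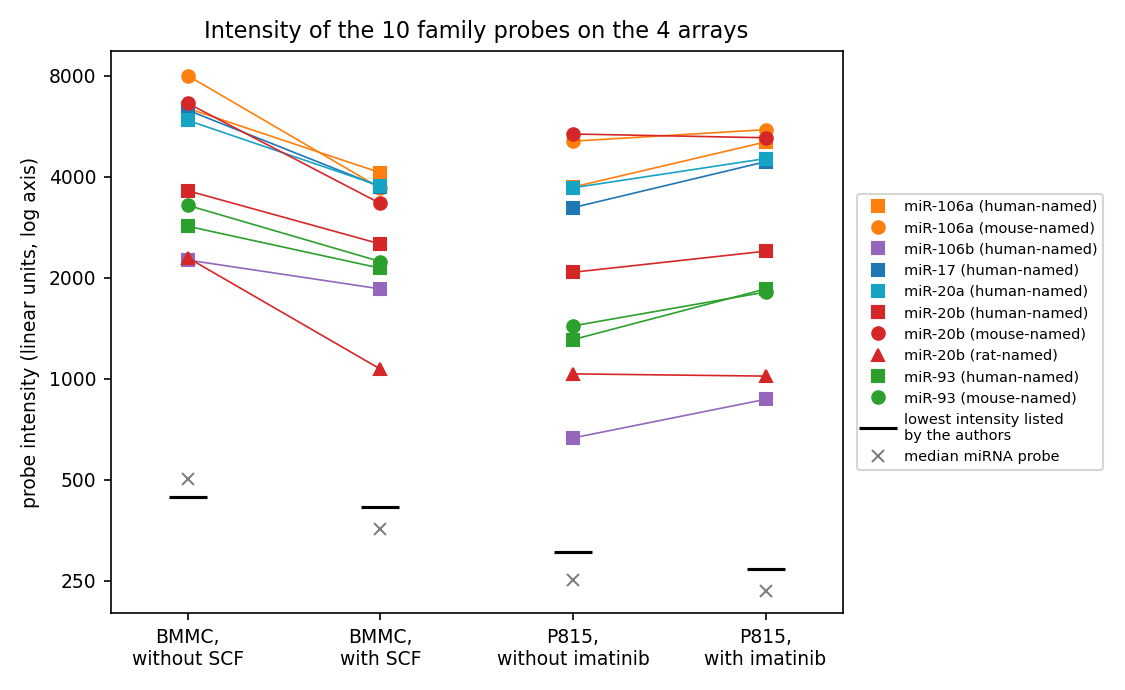
Intensity of each family probe on the 4 arrays, on a log axis; colours mark members, marker shapes the species in the probe's name, thin lines join the 2 arrays of a cell type, bars show the lowest intensity the authors listed and crosses the median of the 785 miRNA probes. All 10 probes lie above the listing limit on every array, and miR-106b falls furthest between BMMC and P815.

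The first comparison asked what SCF does in primary mast cells, and the family differed little. The normalized log2 scale used normexp background correction, then quantile normalization over the 4 arrays. On it, 5 of the 6 members were lower with SCF and 1 was higher. Among all 256 listed miRNAs 40.2% were higher. The median difference was -0.13 for the family, against -0.02 over all listed miRNAs. No member was 2-fold apart in either direction, where 1.95% of the listed miRNAs were 2-fold higher and 0 were 2-fold lower. The difference was -0.50 for miR-106a, -0.32 for miR-20b, -0.13 for miR-17 and for miR-93, -0.05 for miR-20a and 0.30 for miR-106b. The differences of the listed virus- and worm-named probes gave a yardstick for scatter: their SD was 0.31, and 4 of the 6 members lay closer to 0 than that. The members outside it were the X-linked miR-106a and miR-20b, and other probes for these gave other values: 0.04 on the human-named miR-106a probe, and -0.03 and -0.64 on the human- and rat-named miR-20b probes. The spread between probes of 1 miRNA was thus 0.54 for miR-106a and 0.61 for miR-20b, larger than their differences on the mouse-named probe, and 0.10 for miR-93. miR-106b was the highest member under all 10 settings of scaling, background, source of values and probe choice, those of the main analysis included. Not all of these are separate checks: median centring, percentile scaling and no scaling give the same member order by construction.

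In unscaled intensity all 10 probes were lower with SCF, by log2 ratios of -1.11 to -0.29, while the median miRNA probe was lower by -0.50. Without scaling between arrays 2 members were 2-fold lower with SCF, and in the authors' processed values 3 were, with family medians of -0.72 and -1.01. The median listed miRNA was then at -0.61 and -0.90, so the family stayed within 0.11 of it in both. Across all settings the family median lay between -0.17 and 0.11 of the median listed miRNA.

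The second comparison asked what imatinib does in the KIT-mutant line, and here too no member was 2-fold apart. Among the 185 listed miRNAs 44.9% were higher with imatinib, 8.65% were 2-fold higher and 7.57% 2-fold lower, 16.2% 2-fold apart in all. Of the 6 members, 4 were lower with imatinib, 1 was higher and miR-17 held the same brightness rank, 12 of 785, on both arrays, which gives a difference of 0.00. The family median was -0.15, against -0.22 over all listed miRNAs. The difference was -0.36 for miR-20b, -0.34 for miR-93, -0.22 for miR-106b, -0.07 for miR-106a and 0.04 for miR-20a. All 6 were smaller than the SD among virus- and worm-named probes, 0.64. The largest value came from the rat-named miR-20b probe, at -0.94, against -0.41 on the human-named one.

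The sign of the imatinib difference varied with the scaling. In unscaled intensity 8 of the 10 probes were brighter with imatinib, with log2 ratios from -0.04 to 0.50 over all 10, and the median miRNA probe was at -0.12. The family median was 0.35 with median centring and 0.33 without scaling, and -0.61 with cyclic loess, where 1 member, miR-20b, was 2-fold lower. The median listed miRNA was at 0.37 and 0.35 in the first pair of these, close to the family, but at -0.24 with cyclic loess, where the family lay -0.37 from it. No direction is therefore given for the family with imatinib.

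**Figure D3:**
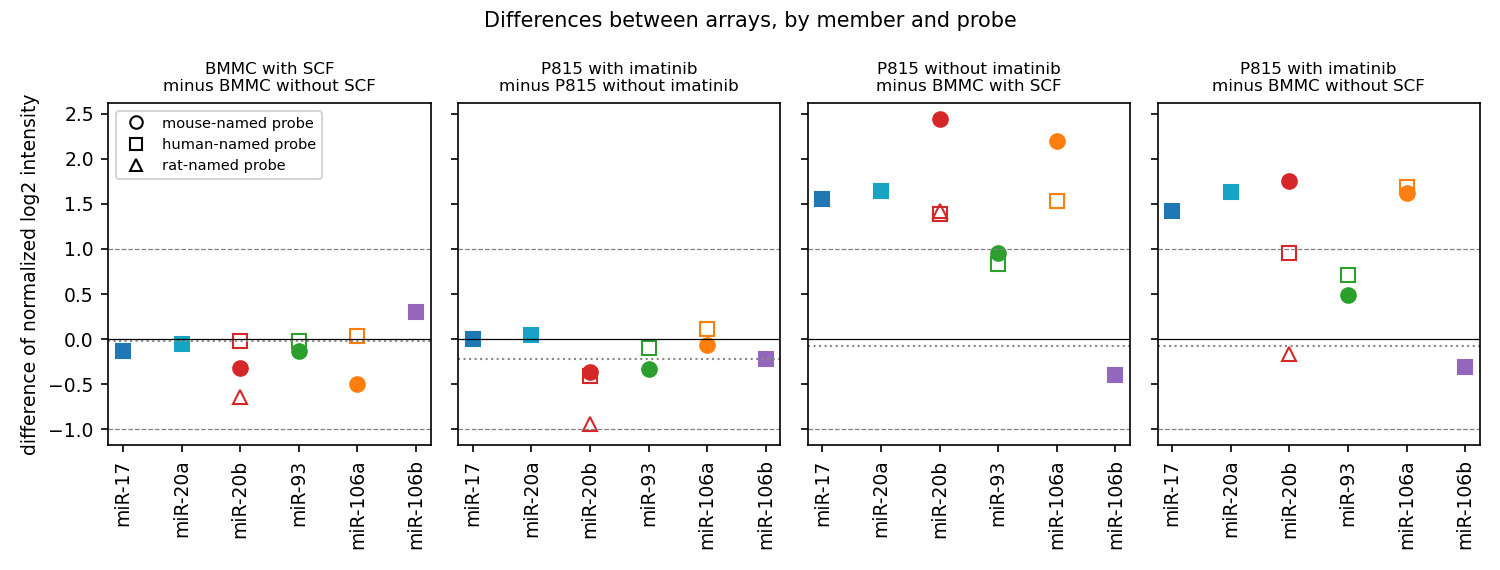
Difference in normalized log2 intensity for every family probe in the 4 comparisons named above the panels; filled markers are the probes that stand for a member, open ones its other probes, dashed lines mark 2-fold and the dotted line the median of all listed miRNAs. Points lie between -1 and 1 for both treatments, whereas in P815 against BMMC 7 of 10 lie above 1 in the third panel and 5 of 10 in the fourth, and miR-106b lies below 0 in both.

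The third comparison set untreated P815 against SCF-treated BMMC, the conditions in which KIT carries its mutation or its ligand. After normalization 5 of the 6 members were higher in P815 and 4 were at least 2-fold higher. Of the 196 listed miRNAs 46.9% were higher in P815, 19.4% were 2-fold higher and 30.1% 2-fold lower, 49.5% 2-fold apart in all. Those 4, miR-17, miR-20a, miR-20b and miR-106a, differ from one another by 1 to 3 bases. How far their probes report separate signals was not tested, so they may not count as 4 separate results. The family median was 1.60, against -0.08 over all listed miRNAs. The virus- and worm-named probes were themselves shifted and wide here, with a median of 0.52 and an SD of 0.90, and 1 member, miR-106b, was closer to 0 than that SD. miR-20b was 5.43-fold higher, miR-106a 4.58-fold, miR-20a 3.12-fold, miR-17 2.93-fold and miR-93 1.94-fold, and miR-106b was 1.32-fold lower. In the order of the differences, miR-20b and miR-106a lay 0.25 apart on the log2 scale and miR-20a and miR-17 lay 0.09 apart, less than the gap between probes of miR-20b (1.06) or miR-106a (0.66), so those neighbours are not separated. In these bulk cultures fewer cells of a type and less RNA per cell cannot be told apart.

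The size of this difference depended on the scaling. The mouse-named miR-20b probe was rank 47 of 785 by brightness in SCF-treated BMMC and rank 4 in untreated P815. The miR-17 probe went from rank 44 to rank 12, although its unscaled intensity was lower in P815, with a log2 ratio of -0.21. Of the 10 probes, 8 were dimmer in P815 without scaling, and the 2 brighter ones were the mouse-named miR-106a and miR-20b probes, at 0.46 and 0.69. The median miRNA probe was at -0.50 and 7 of the 10 probes lay above it. Median centring left 2 members, miR-106a and miR-20b, 2-fold higher, with a family median of 0.49. Without scaling 0 were 2-fold higher, miR-106b was 2-fold lower and the family median was -0.11. Relative to the median listed miRNA of the same setting, the family median was higher by 1.19 to 1.89 on the log2 scale under all 8 settings. Median centring, percentile scaling and no scaling give the same value, 1.19, by construction.

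The fourth comparison set imatinib-treated P815 against starved BMMC, the conditions with the kinase inhibitor and without SCF. Whether imatinib at 10 nM inhibited the D814V form of KIT was not measured. The picture was similar to the third comparison, with 5 of 6 members higher in P815 and 4 at least 2-fold higher. Of the 259 listed miRNAs 44.4% were higher in P815, 7.34% were 2-fold higher and 15.1% 2-fold lower, 22.4% 2-fold apart in all. The 4 were the same members as before, with the same limit on telling their probes apart. The family median was 1.52, against -0.08. The virus- and worm-named probes had a median of 0.23 and an SD of 0.56, and miR-93 and miR-106b were closer to 0 than that SD. miR-20b was 3.38-fold higher, miR-20a 3.09-fold, miR-106a 3.08-fold, miR-17 2.67-fold and miR-93 1.41-fold, and miR-106b was 1.24-fold lower. The rat-named miR-20b probe did not show the miR-20b difference: it was at -0.16, against 0.95 on the human-named and 1.76 on the mouse-named probe. In unscaled intensity all 10 probes were dimmer in P815, with log2 ratios from -1.38 to -0.33, and 8 of them lay above the median miRNA probe, at -1.12. No member was 2-fold higher with median centring, 75th percentile scaling or no scaling, so the 2-fold differences depended on the scaling. These settings differ only by a constant per array, so the family's position relative to other miRNAs is the same in them by construction, at 0.77. Under all 8 settings it was 0.77 to 1.60 above the median listed miRNA. This comparison shares no array with the third, but all 4 arrays were normalized together and the cell types are the same. It is therefore not an independent repeat.

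**Figure D4:**
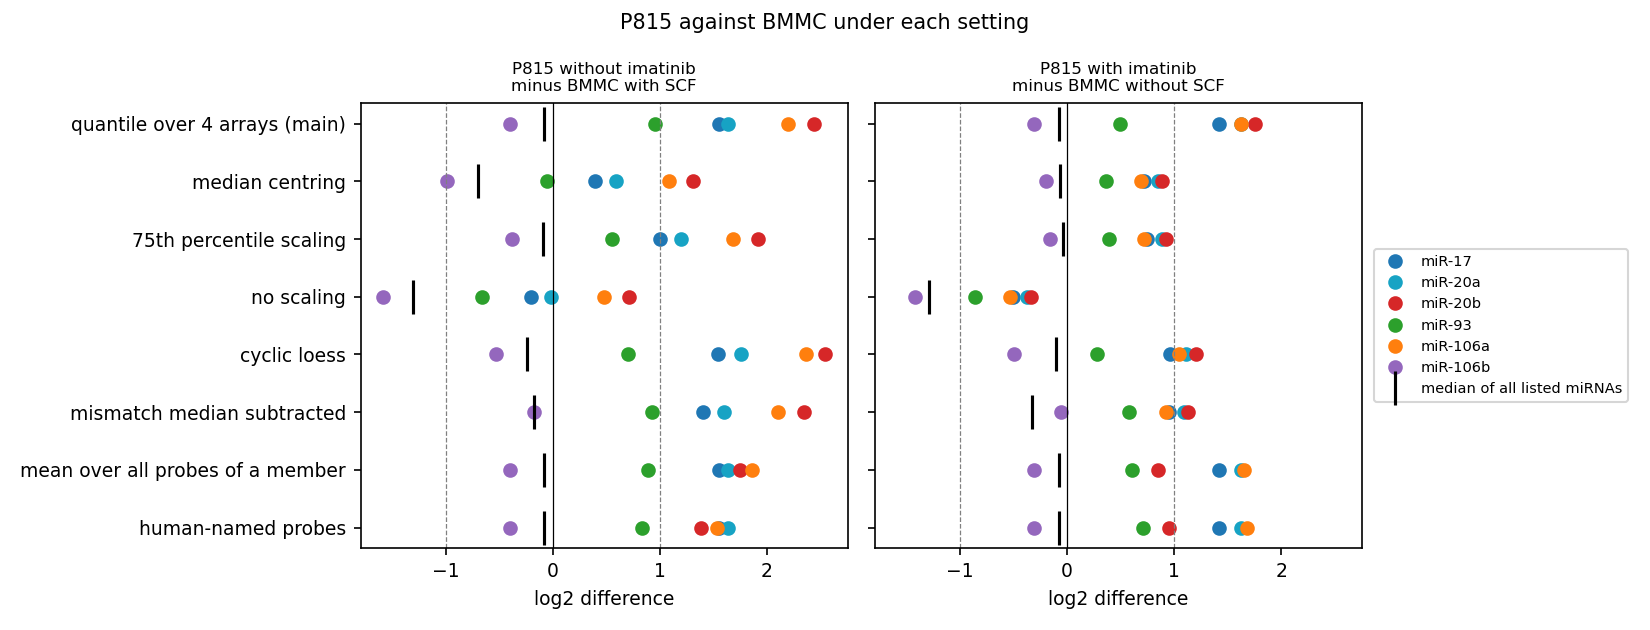
Log2 difference of each member between P815 and BMMC under 8 settings of scaling, background and probe choice; coloured points are members, black bars the median of all listed miRNAs, dashed lines mark 2-fold. The members' level varies with the scaling, and not always with the bar, while miR-106b stays lowest and miR-93 next to it in every row of both panels. The rows for median centring, percentile scaling and no scaling share their member order and gaps by construction.

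Within the family, miR-106b was the lowest member and miR-93 the next under all 8 settings in both cell-type comparisons, while the order of the other 4 varied with the setting. Median centring, percentile scaling and no scaling differ only by a constant per array, so they give the same order and gaps by construction. They do not count as separate checks of the order. The lowest of the other 4 members exceeded miR-93 by 0.45 to 0.84 on the log2 scale in the third comparison and by 0.24 to 0.93 in the fourth. None of the settings used the rat-named miR-20b probe alone. In the fourth comparison that probe, at -0.16 on the normalized scale, lay below miR-93 on its mouse-named (0.49) and human-named (0.71) probes. The probes standing for miR-106b and miR-93 were the dimmest, at 2258.5 and 3288 in starved BMMC. Those of the other 4 members read 5892 to 8009 there. The miR-20b probes, at 6624, 3635 and 2295 there, gave 1.76, 0.95 and -0.16 in the fourth comparison. In the third they gave 2.44, 1.39 and 1.42. The part of probe brightness in the order was not tested. On the human-named probes alone, where every member has a probe of the same kind, the unscaled log2 difference between untreated P815 and SCF-treated BMMC averaged -0.11 for the chromosome 14 members, -0.21 for the X-linked members and -1.09 for the chromosome 5 members. Relative to the chromosome 14 members, the chromosome 5 members were thus at -0.98, and at -0.56 in the fourth comparison. Such ratios within an array carry no array scaling. miR-106b accounted for most of the second value: on these probes it was at -1.38, miR-93 at -0.62, miR-20b at -0.60 and miR-17 at -0.51, so miR-93 and miR-20b were not separated there. In contrast, the X-linked members stood 0.69 above chromosome 14 in the third comparison when their mouse-named probes were used and 0.10 below it on the human-named probes, so their position depended on the probe. miR-93 and miR-106b also differed from each other, by 0.93 to 1.35 in the third comparison and 0.56 to 1.03 in the fourth. No such order was seen with the treatments, where the chromosome 5 members fell below the other 4 under 0 of the 10 settings for SCF and for imatinib. Some of those 10 settings again give the same order by construction.

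Neighbours from the same 3 clusters, which have other seeds, had lower medians than the family in both cell-type comparisons. Of the 12 fixed names 10 had a probe, and 7 of these were listed in at least 1 array of the third comparison. All 7 were higher in untreated P815, 2 of them at least 2-fold, with a median of 0.94. Over the 196 listed miRNAs 46.9% were higher and 19.4% were 2-fold higher. miR-92 (probe name for miR-92a) was at 1.69, miR-25 at 1.27, miR-19b at 0.95, miR-19a at 0.94, miR-18a at 0.81, miR-17-3p at 0.63 and miR-18b at 0.03. miR-25, which comes from the same cluster as miR-93 and miR-106b, read 2035, 1371, 1209 and 1687 on the 4 arrays. The members of that cluster therefore ran from 1.27 for miR-25 through 0.95 for miR-93 to -0.40 for miR-106b. In the fourth comparison 7 neighbours were listed, with a median of 0.08, and 3 of them were lower in P815. miR-25 was at 1.04, miR-92 at 0.94, miR-19a at 0.47 and miR-17-3p at 0.08. miR-18b was at -0.006, miR-19b at -0.11 and miR-18a at -0.16. Of 259 listed miRNAs 44.4% were higher and 7.34% 2-fold higher. With SCF the median of the neighbours was -0.01 and 0 were 2-fold apart, where 1.95% of 256 listed miRNAs were. With imatinib all 6 listed neighbours were lower after normalization, with a median of -0.53 against -0.22 over all listed miRNAs. Of all listed miRNAs 44.9% were higher and 7.57% were 2-fold lower. Among the neighbours miR-19b was 2-fold lower, at -1.06. Before scaling, miR-25 (1209 to 1687) and miR-17-3p (523.5 to 642) were brighter with imatinib. The probes of miR-18a (455 to 400), miR-19a (311 to 264), miR-19b (1192 to 1078) and miR-92 (885.5 to 879) were dimmer. As for the family, no direction is given for the neighbours with imatinib. The mouse-named miR-363 probe and the rat-named star-strand probes of miR-20a and miR-20b were not listed on any array.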

How the data were processed

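Per the file headers, each deposited table gives a linear intensity for every probe, an average of foreground medians. Per the labels' protocols, total RNA was labelled with Cy3 by RNA ligase. The labels name no array maker, scanner or background correction. There were 1406 probes: 785 miRNA, 604 mismatch and 17 control probes. The authors' processed intensity table equalled the array intensity minus the array's median mismatch probe, blank under 1.5 times that median, on all 802 entries. The treated columns were multiplied by 0.834 (BMMC) and 0.628 (P815). The cell types were scaled separately, so this table was used within a cell type only.

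The main values used limma 3.58.1 in R 4.3.3: normexp on all probes with an offset of 50, log2, then quantile normalization on the miRNA probes. The steps were tried on arrays simulated from a shared mean profile with known changes in few probes. Differences as widespread as those between P815 and BMMC were not simulated, so this is no check of the cell-type comparisons. A mouse miRNA took its mouse-named probe (167), otherwise a human-named (206) or rat-named (16) one whose name matches a mouse gene. A miRNA was counted in a comparison if listed on at least 1 of its 2 arrays, and differences were taken as measured. The threshold was 2-fold. Named miRNAs were all members with every probe, the other miRNAs of their clusters, the related-seed group and the 5 nearest profiles. The members and lists were chosen with earlier results of these data known. The number of arrays limits the precision.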

Additional observations from a re-analysis of the deposited data

How the results depend on the processing

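With 1 array per group no replicate could be left out. No paired analysis was possible because each group has a single array. A value was taken as moved when it changed by more than the SD among virus- and worm-named probes of that comparison, and a count when it changed by more than 1.5 times. For untreated P815 against SCF-treated BMMC, the family median went from 1.60 to 0.49 with median centring and turned to -0.11 without scaling, where miR-17 (-0.21), miR-20a (-0.012) and miR-93 (-0.66, and -0.055 with median centring) turned too; members 2-fold higher went from 4 to 2 and 0, and members 2-fold lower from 0 to 1 without scaling. For imatinib-treated P815 against starved BMMC, the family median went from 1.52 to 0.71 with median centring, 0.74 with 75th percentile scaling and 0.94 with the mismatch median subtracted, and turned to -0.52 without scaling, as did miR-17 (-0.51), miR-20a (-0.37), miR-20b (-0.33), miR-106a (-0.53) and miR-93 (-0.86). Members 2-fold higher went from 4 to 0, 0, 2 and 0 in that order, and 1 was 2-fold lower without scaling. With SCF the median went from -0.13 to -1.01 in the authors' processed values and -0.72 with no scaling, with 3 and 2 members 2-fold lower. With imatinib 1 member was 2-fold lower with cyclic loess. Without scaling the median of all listed miRNAs was at -1.30 in untreated P815 against SCF-treated BMMC and at -1.29 in imatinib-treated P815 against starved BMMC. In the latter it stayed near its main value of -0.08 with median centring (-0.064) and 75th percentile scaling (-0.034), so the family's drop there was not matched by it. Requiring listing on both arrays, the number of all miRNAs 2-fold apart was 60 in place of 97 in untreated P815 against SCF-treated BMMC. It was 16 in place of 30 for imatinib in P815. The other 77 values of the family median and counts did not move by these measures. They include 3 members 2-fold higher in place of 4 in imatinib-treated P815 against starved BMMC, with cyclic loess, all probes averaged or human-named probes.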

Other observations

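A second group of miRNAs was taken by name as related to the family by seed, and it had probes of its own on the same arrays. The miR-302 and miR-290 clusters, known from pluripotent cells, include miR-302b and miR-294, shown here beside miR-18a and miR-25 to let the seeds be compared (RefSeq, GRCm38.p6, bases 2 to 8 in capitals).
miR-302b: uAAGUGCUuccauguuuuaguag
miR-294: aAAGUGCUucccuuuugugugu
miR-18a: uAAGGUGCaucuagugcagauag
miR-25: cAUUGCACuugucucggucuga
The first 2 share AAGUGCU, the family's letters moved by a base. The sequences of the other miRNAs in this group were not compared, so some of its probes may be for strands with another seed. The mouse-named miR-302c probe, listed on all 4 arrays, read 1118, 1108, 548 and 576, and none of the others was listed on every array. Of 11 with a probe, 7 were listed in starved BMMC, 4 in SCF-treated BMMC, 1 in untreated P815 and 6 in imatinib-treated P815. With SCF, miR-302b was 2-fold higher, at 1.11 on the normalized log2 scale, with intensities of 444.0 and 630.2 in BMMC without and with SCF. Of the 256 listed miRNAs 1.95% were 2-fold higher with SCF. With imatinib, where 8.65% of 185 listed miRNAs were 2-fold higher, miR-294 was at 1.80 and miR-291a-3p at 1.19. Each was listed only in imatinib-treated P815 of the 2 P815 arrays. The miR-294 mismatch probe rose as well, from 287 to 871.5, and was brighter than the matched probe, which read 198.5 and 477.

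The 5 miRNAs whose profile over the 4 arrays was nearest to the family mean were miR-214, miR-128b, miR-467b, miR-188 and miR-365. They were taken from 118 miRNAs listed on all 4 arrays, by the root-mean-square distance between log2 profiles centred on their own mean. The distances were 0.16, 0.17, 0.19, 0.21 and 0.23, against a median of 0.72 over the 118. Within the family the same distance was 0.13 for miR-17, 0.21 for miR-20a, 0.27 for miR-93, 0.36 for miR-106a, 0.44 for miR-20b and 0.82 for miR-106b. The profile of miR-106b was therefore further from the family mean than that of the median candidate miRNA. With 4 arrays, likeness is a description only.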
